A study of Arabidopsis thaliana with 12 samples.

Results

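The genes described here encode LHCB1 and LHCB2, the major antenna proteins of photosystem II, in *Arabidopsis thaliana*. They were chosen by their locus identifiers, which gave 5 *LHCB1* genes (*LHCB1.1*, AT1G29920; *LHCB1.2*, AT1G29910; *LHCB1.3*, AT1G29930; *LHCB1.4*, AT2G34430; *LHCB1.5*, AT2G34420) and 3 *LHCB2* genes (*LHCB2.1*, AT2G05100; *LHCB2.2*, AT2G05070; *LHCB2.3*, AT3G27690). All 8 were measured, among 22318 genes in a first model fit and 22400 genes in a second. RNA came from whole 5-day-old seedlings of the Col-0 background, about 12 pooled seedlings per library and 2 biological replicates per group. The first fit held *det1-1* (L), *det1-1* (D), WT (L) and WT (D), and the second held *det1-1ubp22-1* (L), *det1-1* (L), *ubp22-1* (L) and WT (L), with the 4 *det1-1* (L) and WT (L) libraries used in both. Light (L) was a photoperiod of 16 h light and 8 h dark with a light intensity of 100 µmol per square metre and second. D stood for constant darkness. The paper gives a single time of day for the harvest, so other times of day were not seen. The *det1-1* allele is a viable, partial loss of function of *DET1*, a repressor of photomorphogenesis in darkness. The *ubp22-1* line, GABI_263H06, carries an insertion in *UBP22*, which encodes a deubiquitinase of histone H2B, and the double mutant came from a cross of the 2 single mutants. Groups with *ubp22-1* are named by their labels throughout, although *UBP22* transcript was higher in these libraries than in WT (L).

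LHCB1 and LHCB2 bind chlorophyll and, as trimers, form the outer light-harvesting complex (LHCII) that passes excitation energy to the photosystem II core. Both are encoded in the nucleus, made in the cytosol and imported into the chloroplast, where phosphorylation by the kinase STN7 lets part of LHCII serve photosystem I. Their transcripts are among the best known light-induced messages of plants, scarce in etiolated seedlings and abundant in green ones.

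The 8 genes lie in 3 regions and 1 single locus of the TAIR10.1 assembly. *LHCB1.2* (chromosome 1, 10472280 to 10473502, minus strand), *LHCB1.1* (10474656 to 10475969, minus strand) and *LHCB1.3* (10477885 to 10479114, plus strand) follow each other, and *LHCB1.1* and *LHCB1.3* are transcribed away from each other with 1915 bases between them. *LHCB1.5* (chromosome 2, 14522524 to 14523568, minus strand) and *LHCB1.4* (14524607 to 14525918, plus strand) are also arranged head to head, 1038 bases apart. *LHCB2.2* (chromosome 2, 1799234 to 1800472, minus strand) and *LHCB2.1* (1822990 to 1824480, minus strand) are 22517 bases apart, and *LHCB2.3* lies on chromosome 3 (10255906 to 10257489, plus strand). The annotation gives the *LHCB1* genes 1 exon each and the *LHCB2* genes 2.

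Within each family the copies were alike in their coding sequence, some pairs more than others, which matters here because a 50-base read that matches several genes is not counted for any of them by default. Coding identity was 86.8% to 96.4% over the 10 pairs of *LHCB1* genes, 84.4% to 96.6% over the 3 pairs of *LHCB2* genes and 70.1% to 73.2% over the 15 pairs between the families. The encoded proteins of 265 to 267 residues were 95.1% to 100% identical within LHCB1 and 94.7% to 97.7% identical within LHCB2, and LHCB1.1 and LHCB1.2 had no difference. Between LHCB1 and LHCB2 the protein identity was 74.8% to 77.0%. A stretch of coding sequence that starts at coding base 301 of *LHCB1.3* and lies within 1 exon in every gene is printed to show how alike the copies are, from 5′ to 3′, with capitals for bases that differ from *LHCB1.3* (RefSeq models on TAIR10.1).
LHCB1.1 (chr1:10475473-10475592, minus strand): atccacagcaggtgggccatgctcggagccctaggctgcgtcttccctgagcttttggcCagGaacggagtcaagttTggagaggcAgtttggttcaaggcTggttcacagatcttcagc
LHCB1.2 (chr1:10472827-10472946, minus strand): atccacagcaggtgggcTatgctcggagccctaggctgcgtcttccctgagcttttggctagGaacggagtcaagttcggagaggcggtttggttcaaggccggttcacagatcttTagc
LHCB1.3 (chr1:10478371-10478490, plus strand): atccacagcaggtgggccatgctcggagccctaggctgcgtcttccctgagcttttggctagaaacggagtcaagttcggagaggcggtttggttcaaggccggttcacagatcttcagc
LHCB1.4 (chr2:14525115-14525234, plus strand): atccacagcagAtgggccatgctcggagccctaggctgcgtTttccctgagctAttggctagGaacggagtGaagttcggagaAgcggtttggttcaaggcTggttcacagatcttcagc
LHCB1.5 (chr2:14523100-14523219, minus strand): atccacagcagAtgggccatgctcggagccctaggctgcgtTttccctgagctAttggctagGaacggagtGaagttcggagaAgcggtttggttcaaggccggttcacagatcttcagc
LHCB2.1 (chr2:1823830-1823949, minus strand): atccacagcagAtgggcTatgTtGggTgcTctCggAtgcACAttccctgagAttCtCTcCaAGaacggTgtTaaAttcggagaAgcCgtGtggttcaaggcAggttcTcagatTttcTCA
LHCB2.2 (chr2:1799817-1799936, minus strand): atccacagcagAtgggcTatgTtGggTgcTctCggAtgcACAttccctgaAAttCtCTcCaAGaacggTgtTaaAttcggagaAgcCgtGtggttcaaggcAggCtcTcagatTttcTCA
LHCB2.3 (chr3:10256421-10256540, plus strand): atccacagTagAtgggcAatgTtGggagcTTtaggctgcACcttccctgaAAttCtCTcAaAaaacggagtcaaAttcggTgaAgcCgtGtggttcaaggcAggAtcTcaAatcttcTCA
The capitals number 3 to 7 of 120 bases in the other *LHCB1* genes and 28 to 32 in the *LHCB2* genes, and long runs without a capital are shared by several *LHCB1* copies.

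Of all 50-base windows of a transcript, the share found at a single place of the genome was 79.5% for *LHCB1.1*, 89.4% for *LHCB1.2*, 83.0% for *LHCB1.3*, 86.3% for *LHCB1.4*, 82.7% for *LHCB1.5*, 77.3% for *LHCB2.1*, 71.8% for *LHCB2.2* and 100% for *LHCB2.3*. No shared window matched outside the 8 genes. The largest sharing was between *LHCB2.1* and *LHCB2.2* (308 windows), *LHCB1.1* and *LHCB1.3* (176) and *LHCB1.4* and *LHCB1.5* (172). Windows outside the coding sequence all had a single place, so most of each transcript can tell the copies apart, although the mapping allowed mismatches and these shares were computed without any. The overlapping antisense neighbours had mean normalized counts of at most 1567 where they were counted, against at least 21720 for the genes they overlap (*LHCB1.3*, *LHCB1.5* and *LHCB2.3*). The overlap was 108 bases in *LHCB1.3* and 595 in *LHCB2.3*. In *LHCB1.5* it was 99 bases with a counted neighbour and 1045 with one that was not counted. These counts do not show how many reads the overlaps cost the antenna genes, which was not tested.

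**Figure D1:**
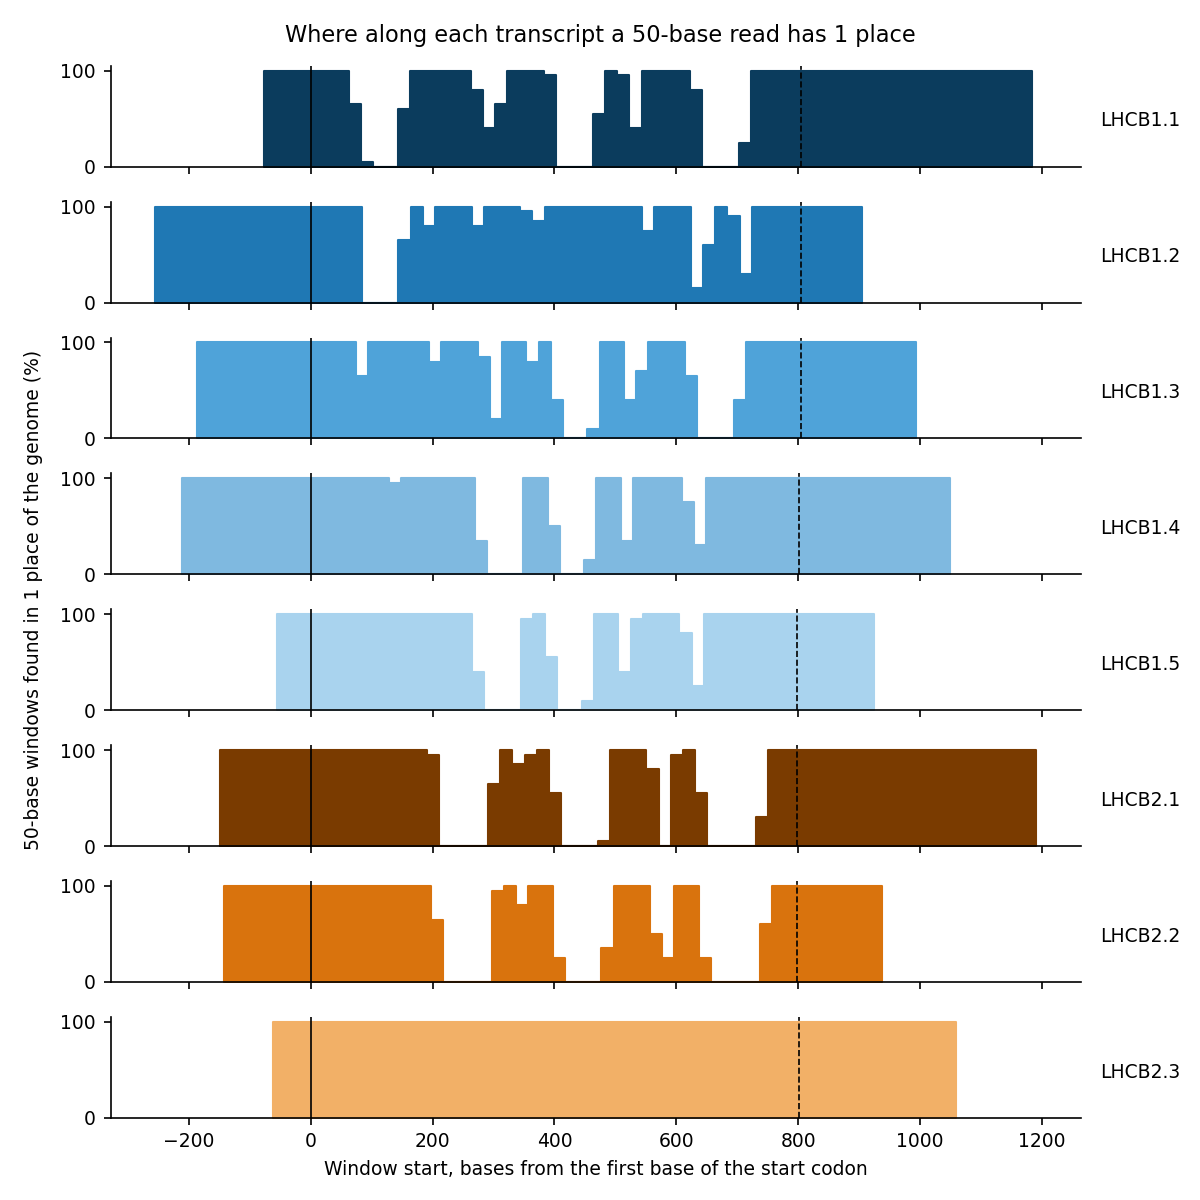
Share of 50-base windows found at a single place of the genome (vertical axis, %) along each of the 8 transcripts, by window start in bases from the start codon (horizontal axis, groups of 20 starts). The solid line marks the start codon and the dashed line the end of the coding sequence. Gaps lie only inside the coding sequence, and *LHCB2.3* has none.

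Because all 8 genes were called higher in WT with light, the 250 bases before the annotated start of each were searched on both strands for the G-box CACGTG, the I-box GATAAG, the CCAATC box and the core AATCT of sites of the clock factor CCA1. CCAATC was present in 5 of the 8 promoters and in 10.4% of 21799 promoters, CACGTG in 1 of 8 and 7.34%, GATAAG in 1 of 8 and 12.3%, and AATCT in 8 of 8 and 62.8%. CCAATC and AATCT overlap when a T follows, so these counts are not independent. Matches in copies of the same family may not be independent either, and how alike the promoters are was not measured. The 5 promoters with CCAATC are printed from 5′ to 3′ on the gene's strand, with matches other than AATCT in capitals. Among these, the match falls at a like distance within each family, while *LHCB1.1*, *LHCB1.2* and *LHCB1.4* have none.
LHCB1.3 (chr1:10477635-10477884, plus strand): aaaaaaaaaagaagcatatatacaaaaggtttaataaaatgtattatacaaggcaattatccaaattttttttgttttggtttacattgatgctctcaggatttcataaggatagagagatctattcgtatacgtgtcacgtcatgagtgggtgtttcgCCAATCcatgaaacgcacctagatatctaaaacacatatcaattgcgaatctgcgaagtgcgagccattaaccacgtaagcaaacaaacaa
LHCB1.5 (chr2:14523569-14523818, minus strand): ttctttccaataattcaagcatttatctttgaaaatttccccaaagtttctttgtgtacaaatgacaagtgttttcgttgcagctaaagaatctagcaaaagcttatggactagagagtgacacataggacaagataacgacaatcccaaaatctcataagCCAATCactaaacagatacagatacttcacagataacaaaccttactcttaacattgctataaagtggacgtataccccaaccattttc
LHCB2.1 (chr2:1824481-1824730, minus strand): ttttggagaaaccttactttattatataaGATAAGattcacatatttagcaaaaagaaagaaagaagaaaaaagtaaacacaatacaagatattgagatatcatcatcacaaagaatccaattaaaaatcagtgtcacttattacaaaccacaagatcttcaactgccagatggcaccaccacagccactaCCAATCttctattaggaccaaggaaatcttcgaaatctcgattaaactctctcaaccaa
LHCB2.2 (chr2:1800473-1800722, minus strand): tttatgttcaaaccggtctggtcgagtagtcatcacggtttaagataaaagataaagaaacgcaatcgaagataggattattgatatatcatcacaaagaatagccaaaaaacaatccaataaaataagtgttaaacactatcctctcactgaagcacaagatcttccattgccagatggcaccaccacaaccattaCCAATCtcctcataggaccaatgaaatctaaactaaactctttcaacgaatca
LHCB2.3 (chr3:10255656-10255905, plus strand): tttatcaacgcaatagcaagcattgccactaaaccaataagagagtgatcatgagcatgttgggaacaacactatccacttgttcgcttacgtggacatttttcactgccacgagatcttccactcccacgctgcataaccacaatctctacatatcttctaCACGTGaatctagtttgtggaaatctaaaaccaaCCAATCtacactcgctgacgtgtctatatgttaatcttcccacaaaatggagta
The C that opens CCAATC lay 91 and 89 bases before the start in *LHCB1.3* and *LHCB1.5*, and 59, 53 and 54 bases before it in *LHCB2.1*, *LHCB2.2* and *LHCB2.3*. A match describes these letters in this window and is not shown to be a bound site.

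The tables hold no value per library. Each level given here is thus a group mean of normalized counts, recovered from the mean over a fit and the fold changes. Fold changes carry the standard error (SE) of the log2 fold change. Intervals between genes of a group were modelled from a spread per gene that was recovered from these errors. They treat the genes as independent, although all were measured in the same libraries. The recovered totals over all genes were 24190350 to 32505172 normalized counts per group in the first fit and 28719530 to 32605572 in the second, and how deeply each library was sequenced is not known. *DET1* exceeded WT (D) in *det1-1* (D) by 0.95 (SE 0.17) on the log2 scale and differed by -0.17 (SE 0.17) between *det1-1* (L) and WT (L), and a level of transcript does not check this allele. *UBP22* was higher, not lower, in the libraries labelled *ubp22-1*, by 4.33 on the log2 scale (SE 0.18, adjusted p = 5.3e-121, Wald test), and by 3.28 (SE 0.18) in those labelled *det1-1ubp22-1*. Which part of the transcript these counts come from is not known from the tables.

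The 8 genes together made up 1.82% of all normalized counts in *det1-1* (L), 1.91% in *det1-1* (D), 3.25% in WT (L) and 0.620% in WT (D) in the first fit. *LHCB1* gave most of it, with 1.54% in *det1-1* (L), 1.76% in *det1-1* (D), 2.64% in WT (L) and 0.596% in WT (D). *LHCB2* gave 0.280% in *det1-1* (L), 0.149% in *det1-1* (D), 0.612% in WT (L) and 0.0238% in WT (D). In the sum of the 8, WT (L) and WT (D) lay at the ends of the range, with both *det1-1* groups between them. In whole seedlings fewer green cells and less transcript per cell cannot be told apart.

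Per kilobase of exon, *LHCB1.3* was the highest of the 8 genes in all 4 groups of the first fit and *LHCB1.5* the second. Exon length covered all annotated transcripts of a gene. In *LHCB2.3* this was 1465 bases, against 1170 in the transcript used for the windows, so its place may depend on that choice. In the other genes both lengths were the same. The level of *LHCB1.3* was 148353 normalized counts per kilobase in *det1-1* (L), 344729 in *det1-1* (D), 207078 in WT (L) and 94187 in WT (D). *LHCB1.5* had 137280 in *det1-1* (L), 78041 in *det1-1* (D), 163364 in WT (L) and 19839 in WT (D). This pair was apart beyond its error in darkness, by a log2 ratio of 2.14 (95% interval 1.77 to 2.52) in *det1-1* (D) and 2.25 (1.88 to 2.62) in WT (D), while in light the intervals held 0 in both genotypes (-0.26 to 0.48 in *det1-1* and -0.03 to 0.71 in WT).

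The lower end of the order depended on the group. In *det1-1* (L) *LHCB1.4* was last, with 4930 normalized counts per kilobase, and stood below *LHCB2.3* (13508) by a log2 ratio of 1.45 (1.06 to 1.85). In *det1-1* (D) the last was *LHCB2.2* (7144). In WT (L) *LHCB1.4* was last as well (29895), and its distance to *LHCB2.3* (33677) was within the error at the exon length used. In WT (D) *LHCB1.1* was last with 1015, not apart from *LHCB2.1* (1157) beyond the error. Of the 7 pairs of neighbours in the order, the interval held 0 for 3 in *det1-1* (L), 3 in *det1-1* (D), 4 in WT (L) and 3 in WT (D).

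**Figure D2:**
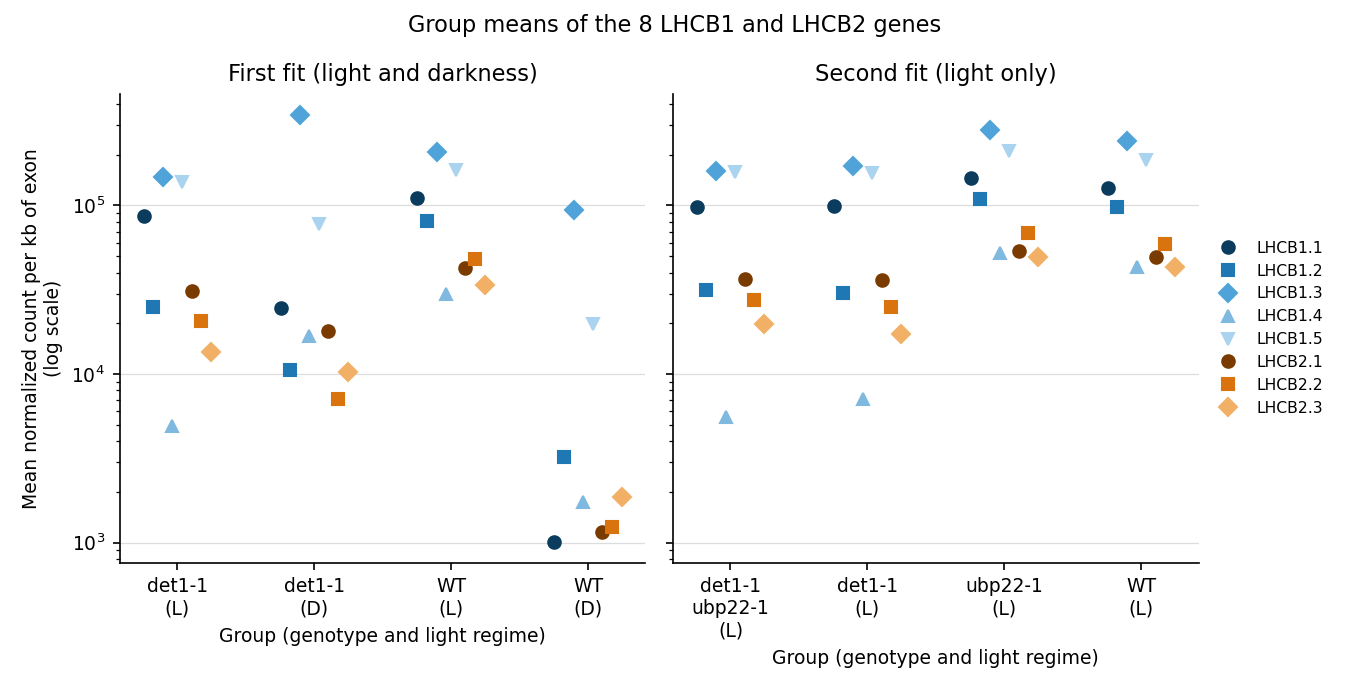
Group means of the 8 genes in normalized counts per kilobase of exon (vertical axis, log scale) in the groups of the first fit (left) and second fit (right). Each point is 1 gene in 1 group, with no error bar because the tables hold no value per library. *LHCB1.3* has the highest mean in every group, though its log2 ratio to *LHCB1.5* is only 0.03 (-0.22 to 0.28) in *det1-1ubp22-1* (L). *LHCB1.4* is the lowest in *det1-1* (L), *det1-1ubp22-1* (L) and WT (L), in WT (L) not apart from *LHCB2.3* beyond the error.

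The question of the light comparison in WT is how far each antenna gene differs between light and darkness in a normal seedling at the time of harvest. With light, all 8 genes rose in WT at more than 2-fold and an adjusted p under 0.01 (Wald test, Benjamini-Hochberg over all genes), as did 20.9% of all genes. Their median log2 fold change was 4.41, against 0.02 over all genes, and the adjusted p was at most 2.5e-10. The size of the response differed widely between copies, with the intervals of the extremes far apart.

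*LHCB1.1* had 144991 normalized counts in WT (L) and 1334 in WT (D), 109-fold higher in light (log2 fold change 6.76, SE 0.23). *LHCB1.3*, on the other side of the same intergenic region, had 254706 in WT (L) and 115850 in WT (D), a log2 fold change of 1.14 (SE 0.17, 95% interval 0.80 to 1.48) that was 0.99, and no longer called, when the groups were rescaled to equal totals. Its call was also lost with a t distribution in place of the normal one. By group mean per kilobase, *LHCB1.1* was the last of the 8 in WT (D) and the third in WT (L), and *LHCB1.3* was the first in both. In WT (D) *LHCB1.1* was not apart from *LHCB2.1* beyond the error (-0.19 to 0.57). In WT (L) the intervals to the next lower gene held 0 for *LHCB1.1* (-0.23 to 1.14) and *LHCB1.3* (-0.03 to 0.71). In the second fit of the same WT (L) libraries these intervals lay above 0 (0.08 to 0.68 and 0.11 to 0.61).

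*LHCB1.2* was 24.9-fold higher, with 98319 normalized counts in WT (L) and 3947 in WT (D), and had the largest error of the 8 (log2 SE 0.44). *LHCB1.4* had 39223 in WT (L) and 2270 in WT (D), 17.3-fold higher in light. *LHCB1.5* had 170715 in WT (L) and 20732 in WT (D), 8.23-fold higher. The *LHCB2* genes were closer to each other: *LHCB2.1* was 36.7-fold higher in WT (L), *LHCB2.2* 39.0-fold and *LHCB2.3* 18.2-fold. Summed over copies, *LHCB1* was 4.91-fold and *LHCB2* 28.5-fold higher in WT (L), a description without a test.

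**Figure D3:**
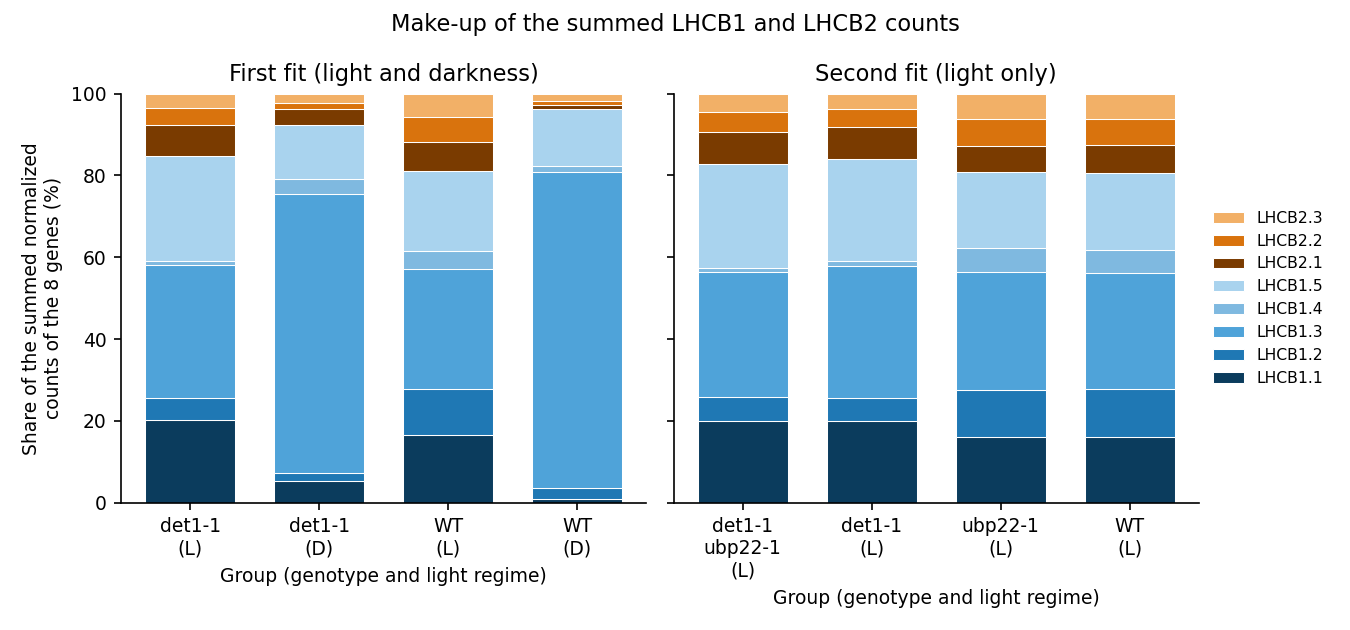
Share of each gene in the summed normalized counts of the 8 genes (vertical axis, %) in the groups of the first fit (left) and the second (right), bars stacked from *LHCB1.1* at the bottom to *LHCB2.3* at the top. *LHCB1.3* holds 68.2% in *det1-1* (D) and 77.3% in WT (D), and 32.3% in *det1-1* (L) and 29.2% in WT (L).

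The second comparison asks how much of the antenna expression of light-grown seedlings appears in darkness when *DET1* is mutated. All 8 genes rose in *det1-1* (D) relative to WT (D), against 14.4% of all genes called higher, with a median log2 fold change of 2.50, against -0.00 over all genes. *LHCB1.1* again moved most, with 32485 normalized counts in *det1-1* (D) and 1334 in WT (D), 24.4-fold higher (log2 fold change 4.61, SE 0.23). *LHCB2.1* was next, with 25235 in *det1-1* (D) and 1627 in WT (D), 15.5-fold higher. *LHCB1.4* had 21943 in *det1-1* (D) and 2270 in WT (D), 9.67-fold higher.

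The other 5 were 3.28-fold to 5.79-fold higher in *det1-1* (D). *LHCB1.2* had the smallest fold and the widest interval (log2 fold change 1.71, 95% interval 0.86 to 2.57, adjusted p = 3.1e-04). *LHCB1.3* had 424016 in *det1-1* (D) and 115850 in WT (D), 3.66-fold higher, which placed it the second among all genes in *det1-1* (D) and the third in WT (D). The mutation in darkness changed *LHCB1.3* more than light did in WT, by 1.87 (1.53 to 2.21) against 1.14 (0.80 to 1.48) on the log2 scale. Both values are set against the same WT (D) libraries, and their difference is the comparison of *det1-1* (D) with WT (L). With a t distribution of 4 degrees of freedom in the test, 5 of the 8 genes stayed called in *det1-1* (D) against WT (D), where 635 of the 3217 higher calls over all genes were left, and 2 in *det1-1* (D) against WT (L), where 594 of the 3557 lower calls were left.

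In that comparison 6 of the 8 genes fell in *det1-1* (D), set against WT (L), compared with 15.9% of all genes called lower. *LHCB1.2* was 7.59-fold lower and *LHCB2.2* 6.74-fold lower, with 8165 normalized counts in *det1-1* (D) and 55041 in WT (L). *LHCB1.1*, *LHCB2.3*, *LHCB2.1* and *LHCB1.5* were 4.46-fold, 3.28-fold, 2.37-fold and 2.09-fold lower. The remaining genes did not pass the 2-fold threshold and lay on opposite sides of 0, *LHCB1.3* at 0.74 (SE 0.17) and *LHCB1.4* at -0.84 (SE 0.23) on the log2 scale, both with an adjusted p under 0.01. When the groups were rescaled to equal totals *LHCB1.4* passed, at -1.12.

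The third comparison asks what light still does when *DET1* is mutated. With light, 2 of the 8 genes rose in *det1-1*, against 15.7% of all genes, and 2 fell, against 11.8% of all genes. *LHCB1.1* was 3.52-fold higher in light, with 114382 normalized counts in *det1-1* (L) and 32485 in *det1-1* (D), and *LHCB2.2* was 2.87-fold higher, with 23444 in *det1-1* (L) and 8165 in *det1-1* (D). *LHCB1.4* fell to 6469 in *det1-1* (L), against 21943 in *det1-1* (D), which is 3.39-fold lower (log2 fold change -1.76, SE 0.23, adjusted p = 5.8e-14). *LHCB1.3* fell to 182474 in *det1-1* (L), against 424016 in *det1-1* (D), 2.32-fold lower (log2 fold change -1.22, SE 0.17, adjusted p = 1.8e-11).

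*LHCB1.3* and *LHCB1.4* thus had opposite signs in the 2 genotypes, higher with light in WT and lower with light in *det1-1*. *LHCB1.2* missed the threshold narrowly (log2 fold change 1.24, SE 0.44, adjusted p = 0.0101). *LHCB1.5*, *LHCB2.1* and *LHCB2.3* had log2 fold changes of 0.81 (SE 0.21), 0.79 (SE 0.15) and 0.40 (SE 0.17), under 2-fold. The summed *LHCB1* counts were 0.833 times and the summed *LHCB2* counts 1.79 times as high in *det1-1* (L) as in *det1-1* (D). The t distribution left none of the 4 calls, and no call among all 22318 genes.

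The difference between the light responses was tested itself. It was below 0 for all 8 genes, which means a smaller or opposite response in *det1-1*, and all 8 passed at a difference over 1 on the log2 scale and an adjusted p under 0.01, against 8.91% of all genes in that direction. It was largest for *LHCB1.4* (-5.87, SE 0.32) and *LHCB1.1* (-4.95, SE 0.33), and smallest for *LHCB1.3* (-2.35, SE 0.24) and *LHCB1.5* (-2.23, SE 0.29). For *LHCB2.1*, *LHCB2.3*, *LHCB2.2* and *LHCB1.2* it was -4.41 (SE 0.21), -3.79 (SE 0.25), -3.76 (SE 0.18) and -3.40 (SE 0.62). The median over the 8 was -3.78, against -0.00 over all genes. With the t distribution 0 of the 8 passed, and 0 of all 22318 genes.

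**Figure D4:**
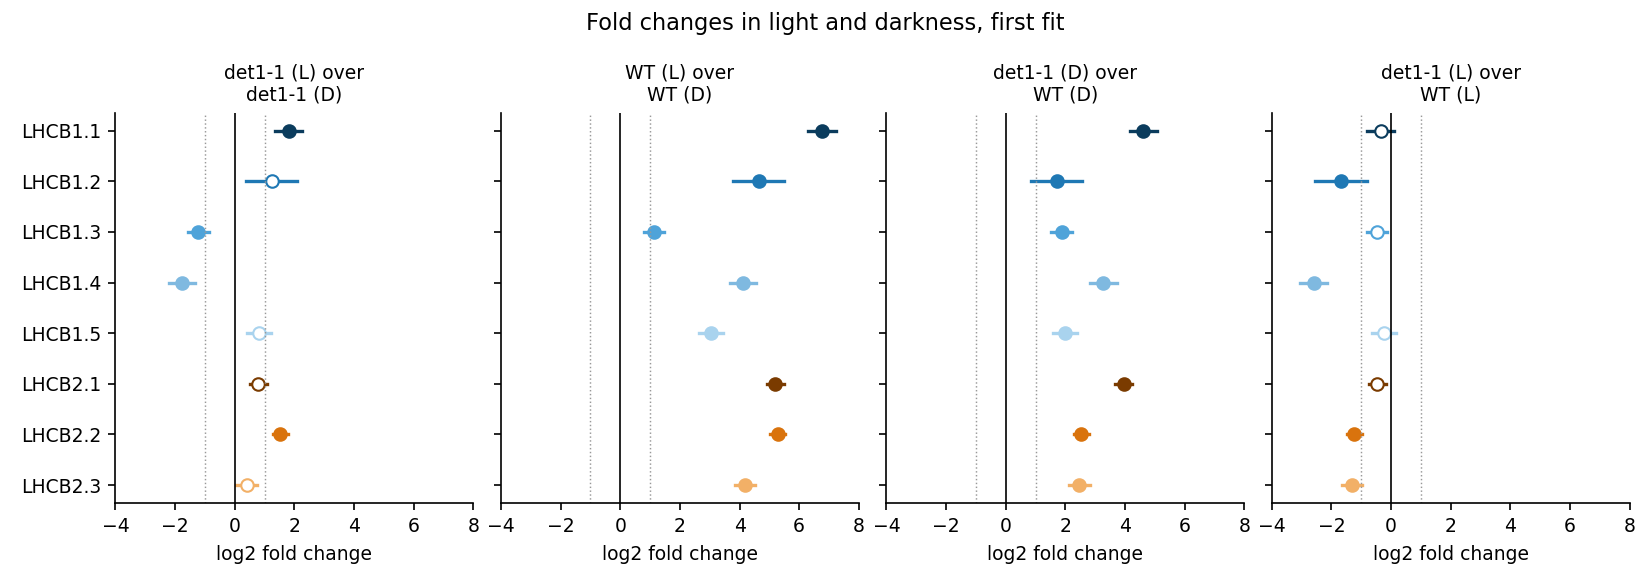
Log2 fold changes (horizontal axis) of the 8 genes (vertical axis) in 4 comparisons of the first fit, with 95% intervals as bars, filled points for calls at more than 2-fold and an adjusted p under 0.01, and open points otherwise. Dotted lines mark 2-fold. In *det1-1* light against darkness, *LHCB1.3* (-1.22) and *LHCB1.4* (-1.76) lie left of 0, while all 8 lie right of 0 in WT.

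In light, 4 of the 8 genes fell in *det1-1* (L) against WT (L), *LHCB1.2*, *LHCB1.4*, *LHCB2.2* and *LHCB2.3*, against 1.01% of all genes called lower, and all 8 fold changes were below 0. *LHCB1.4* had 6469 normalized counts in *det1-1* (L) and 39223 in WT (L), 6.06-fold lower (log2 fold change -2.60, SE 0.23, adjusted p = 1.1e-27). *LHCB1.2* had 30649 in *det1-1* (L) and 98319 in WT (L), 3.21-fold lower (log2 fold change -1.68, SE 0.44, adjusted p = 2.2e-03). *LHCB2.3* was 2.49-fold and *LHCB2.2* 2.35-fold lower. These calls, like those of the libraries labelled *det1-1ubp22-1* (L) given further on, were also lost with the t distribution, under which 0 of all genes were called in these comparisons.

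The other 4 were *LHCB1.1*, *LHCB1.3*, *LHCB1.5* and *LHCB2.1*, with log2 fold changes of -0.25 to -0.48. In the first fit the 95% interval of *LHCB1.1* ran from -0.79 to 0.11 and that of *LHCB1.5* from -0.65 to 0.15. Those of *LHCB1.3* (-0.82 to -0.14) and *LHCB2.1* (-0.74 to -0.17) lay below 0. In the head-to-head pair on chromosome 2, *LHCB1.4* stood at -2.60 (-3.04 to -2.16) and *LHCB1.5* at -0.25. The near-identical *LHCB2.2* and *LHCB2.1* stood at -1.23 (-1.48 to -0.98) and -0.46 (-0.74 to -0.17), and reads from their shared windows are not assigned to either.

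The second fit gave the same libraries another estimate of spread and called the same 4 genes lower, against 1.22% of all genes, which is no independent support. The fold changes were within 0.01 of the first fit on the log2 scale, while the SE of *LHCB1.2* was 0.18 in the second fit and 0.44 in the first. In the second fit the 95% intervals of *LHCB1.1* (-0.57 to -0.13) and *LHCB1.5* (-0.48 to -0.04) also lay below 0. At an adjusted p under 0.01 whatever the fold, 6 of the 8 were lower in that fit, against 781 of 22400 genes. The dispersion of *LHCB1.2* was 0.016 in the second fit and 0.092 in the first, the highest of the 8 genes in each.

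In the libraries labelled *ubp22-1* (L), set against WT (L), 0 of the 8 genes passed, against 0.116% of all genes in either direction, and 1 of 8 had an unadjusted p under 0.05, against 783 of 22400 genes. With a t distribution 0 of 8 and 0 of all genes passed. The 8 log2 fold changes were all above 0, between 0.11 and 0.27, and the highest upper bound of a 95% interval was 0.59, for *LHCB1.4*. *LHCB2.2* had 78543 normalized counts in the libraries labelled *ubp22-1* (L) and 67202 in WT (L), 1.17-fold higher (unadjusted p = 0.040 from the Wald test, adjusted p = 1.00).

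In the libraries labelled *det1-1ubp22-1* (L) the 4 genes called lower in *det1-1* (L) were also called lower against WT (L), against 0.848% of all genes, and both comparisons use the WT (L) libraries. *LHCB1.4* had 7255 normalized counts in *det1-1ubp22-1* (L) and 56635 in WT (L), 7.81-fold lower (log2 fold change -2.96, SE 0.16, adjusted p = 2.2e-71). *LHCB1.2* had 38496 in *det1-1ubp22-1* (L) and 119573 in WT (L), 3.11-fold lower. *LHCB2.3* and *LHCB2.2* had log2 fold changes of -1.14 (SE 0.14) and -1.10 (SE 0.11). The genes not called were below 0 as well: *LHCB1.3* at -0.58 (SE 0.14), *LHCB2.1* at -0.43 (SE 0.12), *LHCB1.1* at -0.38 (SE 0.11) and *LHCB1.5* at -0.25 (SE 0.11). At an adjusted p under 0.01 whatever the fold, 6 of the 8 were lower, against 490 of 22400 genes.

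Set directly against *det1-1* (L), the libraries labelled *det1-1ubp22-1* (L) had 0 of 8 genes called, against 0.0714% of all genes in either direction, and 1 of 8 at an unadjusted p under 0.05, against 1789 of 22400 genes. With a t distribution 0 of 8 and 0 of all genes passed. The gene at an unadjusted p under 0.05 was *LHCB1.4*, with 7255 normalized counts in *det1-1ubp22-1* (L) and 9289 in *det1-1* (L), a log2 fold change of -0.36 (95% interval -0.67 to -0.04, adjusted p = 0.52 from the Wald test). For the other 7 the log2 fold change lay between -0.09 and 0.19, with no interval reaching beyond -0.37 or 0.47. Between the libraries labelled *det1-1ubp22-1* (L) and those labelled *ubp22-1* (L), 4 of 8 genes were lower, against 1.42% of all genes, with log2 fold changes of -3.24 (SE 0.16) for *LHCB1.4*, -1.80 (SE 0.18) for *LHCB1.2*, -1.33 (SE 0.14) for *LHCB2.3* and -1.32 (SE 0.11) for *LHCB2.2*. At an adjusted p under 0.01 whatever the fold, all 8 were lower, against 4.25% of all genes.

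**Figure D5:**
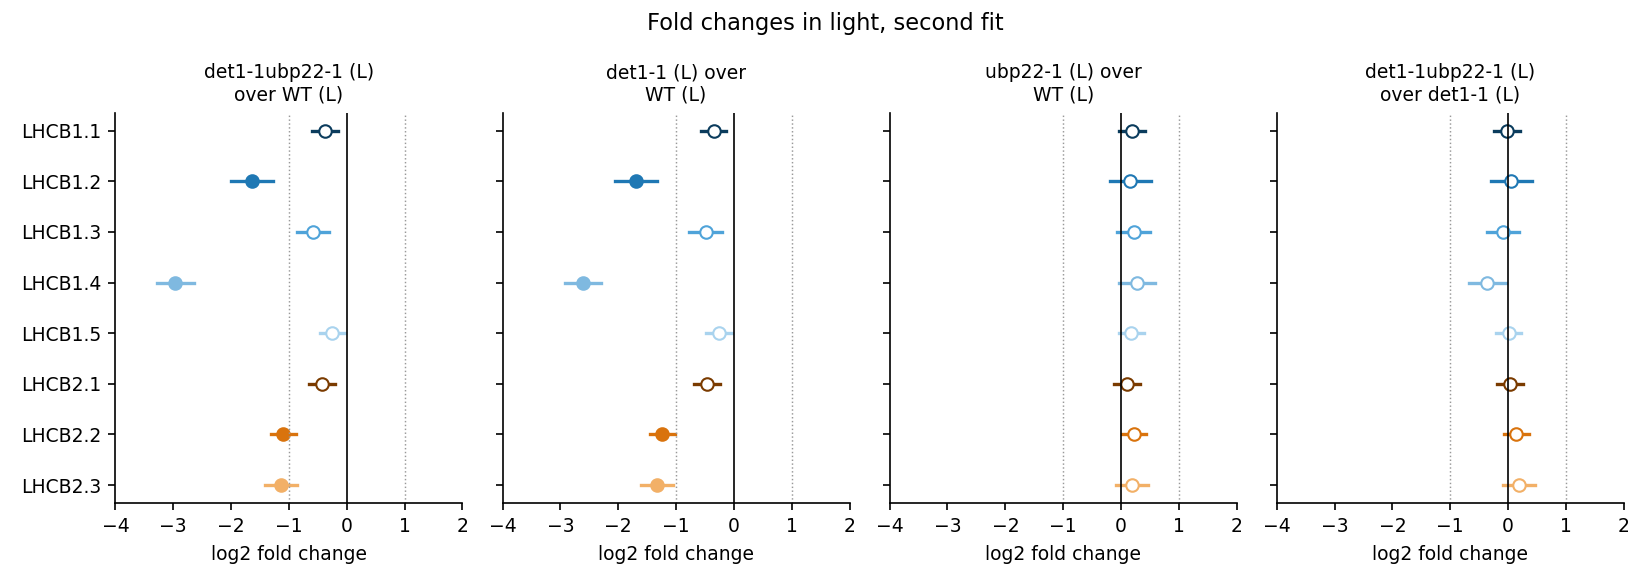
Log2 fold changes (horizontal axis) of the 8 genes (vertical axis) in 4 comparisons of the second fit, with 95% intervals as bars, filled points for calls and open points otherwise. Groups are named by their labels, and dotted lines mark 2-fold. The 2 left panels call the same 4 genes, with *LHCB1.4* lowest at -2.96 and -2.61, and the 2 right panels call none.

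The copies also took different shares of the major antenna transcripts in light, given here as a description. *LHCB1.4* held 1.12% of the summed counts of the 8 genes in *det1-1ubp22-1* (L), 1.42% in *det1-1* (L), 5.79% in *ubp22-1* (L) and 5.48% in WT (L). *LHCB1.5*, which encodes the same protein family from the same intergenic region, held 25.3% in *det1-1ubp22-1* (L), 24.9% in *det1-1* (L), 18.7% in *ubp22-1* (L) and 18.9% in WT (L). The 8 genes together made up 2.06% of all normalized counts in *det1-1ubp22-1* (L), 2.01% in *det1-1* (L), 4.03% in *ubp22-1* (L) and 3.60% in WT (L).

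The remaining 13 antenna genes, *LHCA1* to *LHCA6* of photosystem I and *LHCB3* to *LHCB7* of photosystem II were taken as a list of relatives. The counts of this and the next lists are to be read against the share of all genes called higher and lower, which was 20.9% and 15.6% with light in WT, 14.4% and 10.6% in *det1-1* (D) against WT (D), 15.7% and 11.8% with light in *det1-1*, and 2.2% and 1.01% in *det1-1* (L) against WT (L). With the t distribution the calls of these lists, *DET1* and *UBP22* were lost 66 times over all comparisons. These losses were not split between the lists and *DET1* and *UBP22*. No gene stayed called with light in *det1-1* or in *det1-1* (L) against WT (L). With light, all 13 rose in WT. In *det1-1* (D), set against WT (D), 9 rose and 0 fell, and the 9 included *LHCA1* (log2 fold change 3.75, SE 0.14), *LHCB7* (3.26, SE 0.25) and *LHCA5* (2.86, SE 0.20). Among the 4 not called were *LHCB6* (0.73, SE 0.14) and *LHCB4.2* (-0.32, SE 0.18), minor antenna genes. With light, 4 rose and 0 fell in *det1-1*, with *LHCB4.3* at 3.37 (SE 0.21), *LHCA6* at 2.38 (SE 0.25) and *LHCB3* at 2.22 (SE 0.15). The difference between the light responses was called below 0 for 10 of the 13 (*LHCA1* at -4.37, SE 0.19), against 8.91% of all genes. The median difference over the 13 was -2.07, against -3.78 for the major antenna. Between *det1-1* (L) and WT (L) 1 was lower, *LHCB4.2* (-1.08, SE 0.18), and 1 higher, *LHCB7* (1.29, SE 0.22, second fit).

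Of 10 genes that target, insert or modify LHCII, 5 rose with light in WT, with *PSBS* (photoprotective quenching, 3.37, SE 0.20), *STN7* (the LHCII kinase, 2.97, SE 0.19) and *CAO* (chlorophyll b synthesis, 2.49, SE 0.16) the largest. In darkness 5 were higher in *det1-1*, led by *STN7* (3.38, SE 0.19) and *cpSRP43* (a chaperone of imported antenna proteins, 1.59, SE 0.14). *PSBS* and *CAO* were among the genes not called in that comparison. Light in *det1-1* raised 1, *PSBS* (3.34, SE 0.20), and lowered 2, *NYC1* (chlorophyll b breakdown, -1.45, SE 0.18) and *TAP38* (the phosphatase of LHCII, -1.01, SE 0.17). These 1 and 2 of 10 are near the shares over all genes. Between *det1-1* (L) and WT (L) 0 of the 10 passed, with log2 fold changes of 0.39 (SE 0.20) for *PSBS* and 0.70 (SE 0.19) for *ALB3* (membrane insertion of LHCII).

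Of 12 regulators of antenna genes, 6 rose and 1 fell with light in WT, and in darkness 3 rose and 2 fell in *det1-1* relative to WT, the counts in darkness being close to the shares over all genes. *CGA1*, a GATA factor of greening, was higher in both (4.80, SE 0.35, and 4.02, SE 0.35), and *PIF3*, a repressor of photomorphogenesis, was lower in both (-2.11, SE 0.15, and -2.16, SE 0.16). Both comparisons use the WT (D) libraries. *PIF1*, *PIF4* and *PIF5*, also on the list, were not called lower with light in WT. In *det1-1* (L) against WT (L), *GLK1*, an activator of antenna genes (-1.22, SE 0.19), and *CGA1* (-1.16, SE 0.29) were lower and *HY5*, an activator of light-induced genes (1.47, SE 0.18), was higher.

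Genes were ranked by how near their pattern lay to the median of the 8. The measure was the root mean square difference in 5 log2 fold changes against WT (L). It covered the 17164 genes that reached a mean of 50 normalized counts in both fits. *LHCA1* was nearest (0.33), followed by AT4G13495, AT3G05730, AT5G01015, *YUC5*, AT5G19500, AT2G03750, *CGA1* (0.46), *PLT2* and AT4G28780 (0.48). Among the 8 themselves, *LHCB2.3* (0.29) and *LHCB2.1* (0.45) were closest to their median and *LHCB1.3* (1.78) the farthest. All members but *LHCB2.3* and *LHCB2.1* lay farther from the median than every gene in this ranking named above, *LHCB2.2* being the next at 0.72. The ranked genes are thus near the median and not near most of the 8. The 5 values share the WT (L) libraries, so this is a description without a test.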

How the data were processed

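RNA-seq libraries (12, in 6 groups of 2) were grouped by the submitters' labels, whose notes on processing give TAIR10, HTSeq, STAR, DESeq2 and CASAVA 1.8. The authors mapped single-end reads of 50 bases, counted reads by gene and ran DESeq2 on sets of 8 libraries. The library kit is stranded and the counting command names no strand setting. The deposited files are 7 tables, which hold the authors' comparisons of groups and no value per library, so these columns were the only values to work from. The deposited signal is the mean normalized count over the 8 libraries of a fit. The authors' log2 fold changes and standard errors come from the fitted model, the deposited score is the Wald statistic, and the deposited p-values were not used other than to check that calls were the same. The 1 total in each table was left out. Tables of darkness over light were turned to light over darkness.

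Wald p-values were computed from each fold change and standard error and adjusted by the Benjamini-Hochberg method over all genes, and genes were called at more than 2-fold and an adjusted p under 0.01. Group means were recovered from the mean and the fold changes, and 1 negative binomial dispersion per gene from the standard errors. These dispersions gave the errors of the 3 comparisons without a table. They also gave the intervals between genes of a group, with the variances added as if the genes were independent. The difference between light responses joins 2 fold changes with no library in common. Replicates were called biological by the study; with 2 per group and no value per library they could not be compared. The calculations were tested on simulated data. Sequences are those of RefSeq on TAIR10.1; all 8 identifiers matched. Python 3.11.15, pandas 2.3.3, NumPy 2.4.6, SciPy 1.17.1, Biopython 1.88 and matplotlib 3.10.9 were used. Named genes are all 8 members, from each list up to 3 called genes with the largest change and up to 2 uncalled genes with the highest mean, and the 10 most similar genes, and some of these were left out for brevity. The members and lists were chosen with earlier results of these data known. Alternatives were another false discovery rate, no minimum fold, a minimum mean of 10, a t distribution with 4 residual degrees of freedom, recentring, rescaling to totals and, without a table, added variances.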

Additional observations from a re-analysis of the deposited data

Results flagged for a closer look

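The response to light differed between *det1-1* and WT seedlings for each of the 8 genes, by a test of the difference itself (Wald test, adjusted p at most 6.0e-07). The light response of *det1-1* minus that of WT was, on the log2 scale, -4.95 for *LHCB1.1*, -3.40 for *LHCB1.2*, -2.35 for *LHCB1.3*, -5.87 for *LHCB1.4*, -2.23 for *LHCB1.5*, -4.41 for *LHCB2.1*, -3.76 for *LHCB2.2* and -3.79 for *LHCB2.3*. For *LHCB1.3* and *LHCB1.4* the response in *det1-1* had the opposite sign to that in WT. With a t distribution with 4 degrees of freedom 0 of the 8 passed, and 0 of all 22318 genes.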

How the results depend on the processing

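Of 69 counts of called genes under an alternative, 60 stayed within 1.5 times the count given, 8 were lower and 1 was higher. All 8 lower counts came from the t distribution with 4 degrees of freedom, which gives larger p by construction for every gene. It left 5 of the 8 genes in *det1-1* (D) against WT (D), 2 in *det1-1* (D) against WT (L), and 0 in *det1-1* (L) against *det1-1* (D), in *det1-1* (L) against WT (L) in both fits, in the difference between light responses, in *det1-1ubp22-1* (L) against WT (L) and in *det1-1ubp22-1* (L) against *ubp22-1* (L), and where it left 0 of the 8 it left 0 of all genes. Without a minimum fold, 8 genes in place of 4 were called in *det1-1ubp22-1* (L) against *ubp22-1* (L). No called fold change of the 8 genes changed sign. *LHCB1.3* lost its call in WT (L) against WT (D) when rescaled to the totals (log2 fold change 0.99) and with the t distribution, and *LHCB1.2* gained one in *det1-1* (L) against *det1-1* (D) at an adjusted p under 0.05, with the filter on low means and when rescaled (1.31). *LHCB1.4* gained one in *det1-1* (D) against WT (L) when rescaled (-1.12). Rescaling to totals shifts all fold changes, by 0.43 in *det1-1* (D) against WT (D) and 0.21 in *det1-1* (L) against WT (L), and the share of higher calls among all genes became 31.8% in place of 57.7% in *det1-1* (D) against WT (D), 41.3% in place of 68.6% in *det1-1* (L) against WT (L), 40.8% in place of 65.6% in its second fit, 43.9% in place of 62.5% in *det1-1ubp22-1* (L) against WT (L), 48.6% in place of 61.0% in *det1-1ubp22-1* (L) against *ubp22-1* (L), 78.9% in place of 68.8% in *det1-1ubp22-1* (L) against *det1-1* (L), 30.2% in place of 45.4% in *det1-1* (D) against WT (L) and 57.5% in place of 43.1% for the difference between light responses. Added variances changed no count of the 8 genes. The order of levels moved by 2 genes at most without division by length or, chosen after seeing the data, per kilobase of single-place windows.

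No paired analysis was possible because the tables hold no value per library. For the same reason no replicate was left out, the depth behind each value is unknown, and whether 1 library sets a value was not tested.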
